A study of Mus musculus with 12 samples.

Results

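The genes described here make cholesterol and fatty acids. They are 31 mouse genes, listed by symbol and kept when they had 10 or more counts in at least 3 of the 12 libraries. All 31 met that rule, out of 24421 symbols in the count table, and all 31 were among the 13281 genes tested. By role they are 5 genes of the SREBP system (Srebf1, Srebf2, Scap, Insig1, Insig2), 18 of the sterol pathway in reaction order from Acat2 to Dhcr7, 3 of sterol transport (Stard4, Npc1, Npc2) and 5 lipogenic enzymes (Acly, Acss2, Acaca, Fasn, Elovl6). The cells were KP cells, a mouse lung adenocarcinoma line whose labelled genotype, shared by all groups, includes Trp53flox/flox, floxed alleles of the tumour suppressor gene Trp53. BACH1, the factor knocked out, represses transcription and binds heme, and FEM1B, the factor knocked down, picks substrates for a cullin ubiquitin ligase. There were 4 groups of 3 libraries, each from cells transfected for 48 hours: control-guide cells with control siRNA (sgCTRL_siCTRL), control-guide cells with FEM1B siRNA (sgCTRL_siFEM1B), BACH1 knockout cells with control siRNA (sgBACH1_siCTRL) and BACH1 knockout cells with FEM1B siRNA (sgBACH1_siFEM1B). The design text calls the 3 libraries of a group biological replicates, and the study asked how loss of either factor changes genes related to ferroptosis. Each genotype is 1 line, and whether the knockout cells were a clone or a pool is not given in the sources used here, so BACH1 loss and any other difference between the lines cannot be told apart.

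Cells make cholesterol from acetyl-CoA through mevalonate, farnesyl diphosphate, squalene and lanosterol, and they make fatty acids from the same acetyl-CoA. Both routes are driven by the SREBP transcription factors, which are held in the endoplasmic reticulum (ER) with their escort SCAP and the INSIG anchors while sterols are plentiful. When sterols fall, SCAP carries the SREBPs to the Golgi, where proteases release the active part, which binds sterol regulatory elements together with nuclear factor Y (NF-Y) and Sp1. The mevalonate route also feeds coenzyme Q and other isoprenoids, and its late sterol intermediates are known to affect lipid peroxidation, which ties the route to ferroptosis, cell death driven by iron and oxidised lipids.

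Promoters are shown for some members picked by their mRNA response to FEM1B siRNA and by their letters, to let these be read beside the values. They are the 3 members with the largest rise in control cells among those higher with the siRNA in both genotypes, and the members whose siRNA response differed between genotypes, in each case among those that the RefSeq promoter table held with a CCAAT box, which leaves out Acat2 and Fdft1. Each line gives the 250 bases before the start site on the strand of the gene, 5′ to 3′, from RefSeq on GRCm38.p6, the assembly that mm10 denotes. The bases after the start were found in a transcript of the same gene for all those shown except Nsdhl. Its start and strand thus rest on RefSeq alone. Capitals mark the NF-Y box CCAAT, read as ATTGG where it lies on the other strand, and in Hmgcs1 also the sterol regulatory element TCACCCCAC.
Hmgcs1 (plus strand, chr13:119690101-119690350): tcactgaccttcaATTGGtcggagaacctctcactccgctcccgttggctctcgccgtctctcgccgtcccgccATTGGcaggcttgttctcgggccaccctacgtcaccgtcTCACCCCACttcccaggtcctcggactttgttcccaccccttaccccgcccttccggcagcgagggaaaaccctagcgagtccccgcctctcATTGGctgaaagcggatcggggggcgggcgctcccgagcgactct
Msmo1 (minus strand, chr8:64733579-64733828): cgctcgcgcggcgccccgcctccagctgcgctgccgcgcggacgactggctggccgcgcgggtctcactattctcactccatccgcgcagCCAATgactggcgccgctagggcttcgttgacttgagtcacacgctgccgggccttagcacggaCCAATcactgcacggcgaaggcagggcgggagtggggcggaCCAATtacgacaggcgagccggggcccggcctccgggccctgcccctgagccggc
Tm7sf2 (minus strand, chr19:6067851-6068100): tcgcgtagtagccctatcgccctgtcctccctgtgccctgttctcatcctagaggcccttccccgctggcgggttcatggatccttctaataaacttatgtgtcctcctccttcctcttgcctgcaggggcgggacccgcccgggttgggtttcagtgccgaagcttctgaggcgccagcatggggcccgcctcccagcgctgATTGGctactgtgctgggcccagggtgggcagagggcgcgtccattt
Mvd (minus strand, chr8:122443423-122443672): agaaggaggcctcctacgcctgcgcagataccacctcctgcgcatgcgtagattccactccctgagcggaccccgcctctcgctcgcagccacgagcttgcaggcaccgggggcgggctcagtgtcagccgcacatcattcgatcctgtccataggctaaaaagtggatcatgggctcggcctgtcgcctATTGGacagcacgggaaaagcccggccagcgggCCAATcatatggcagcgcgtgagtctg
Nsdhl (plus strand, chrX:72918271-72918520): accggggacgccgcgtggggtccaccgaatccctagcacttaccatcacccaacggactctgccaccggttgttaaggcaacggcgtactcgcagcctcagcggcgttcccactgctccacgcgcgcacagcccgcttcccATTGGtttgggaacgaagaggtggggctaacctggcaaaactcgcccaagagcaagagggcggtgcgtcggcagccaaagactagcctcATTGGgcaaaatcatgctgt
The element of Hmgcs1 ends 128 bases before the start, and its CCAAT boxes end 232, 171 and 40 bases before it. Msmo1 holds 3 boxes, Mvd and Nsdhl 2 each and Tm7sf2 1, and none overlaps another capital motif.

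Over the members, the CCAAT box was common and the strict sterol element was rare. Promoters of 26 members were matched by symbol, 34 in all where alternative starts are counted, and a gene was counted when any of its promoters held the letters on either strand. CCAAT was found in 21 of 26 members (80.8%), against 37.5% of the 27025 genes with a promoter in the table and 40.9% of the 9792 tested genes with a promoter. The Sp1 box GGGCGG was in 22 members (84.6%), against 35.4% and 63.8%. The sterol element TCACNCCAC was in Hmgcs1 alone (3.85%), against 1.22% of the genes in the table. The E-box CACGTG was in 5 members (19.2%), against 6.86% and 9.88%, and the core TGANTCA of AP-1 and antioxidant elements in 2 (7.69%), against 7.82% and 5.89%. The CCAAT share was 7 of 9 among matched members called higher with the siRNA in both genotypes and 14 of 17 among the others. These matches describe the letters of a short window and no binding was measured.

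Library totals lay between 16539168 and 22196999 counts, and levels are given as CPM, the count scaled to library size, where a single count came to between 0.0446 and 0.0604. Fem1b was at 157 to 167 CPM in sgCTRL_siCTRL and 136 to 141 CPM in sgBACH1_siCTRL, and at 43.0 to 58.0 and 46.2 to 54.5 CPM in the matching FEM1B siRNA groups. Bach1 was at 31.4 ± 2.04 and 29.5 ± 1.72 CPM (mean ± SD, n = 3) in control and knockout cells with control siRNA, which does not check a CRISPR lesion. With FEM1B siRNA Bach1 was at 41.4 ± 3.25 and 39.9 ± 0.60 CPM in control and knockout cells. These were log2 rises of 0.40 (adjusted p = 0.000242) and 0.44 (adjusted p = 0.000133) in the edgeR quasi-likelihood test. The epithelial genes Krt8, Krt18 and Cdh1 were abundant, Krt8 at 1959.9 CPM or more in every library, while Epcam had at most 31 counts. The lung lineage gene Nkx2-1 had 0 counts in all libraries, and the alveolar genes Sftpc, Sftpb and Napsa had at most 1, 8 and 2. The summed leukocyte markers, nearly all of them Cd68, were 7.59 to 9.51 CPM in sgCTRL_siCTRL, 21.1 to 29.98 in sgCTRL_siFEM1B, 5.34 to 6.05 in sgBACH1_siCTRL and 8.51 to 11.1 in sgBACH1_siFEM1B, with Ptprc at 9 counts or fewer and Lyz2 at 4 or fewer. The 3 endothelial markers summed to at most 2.01 CPM, and the 3 fibroblast markers, mostly Col1a1, to 17.9 to 24.4 CPM in control and 8.58 to 11.1 CPM in knockout cells. The part of these markers in the results below was not tested.

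The level of the member genes was uneven between replicates of the FEM1B siRNA groups. The mean over the 31 members of log2 CPM, each gene taken relative to its own mean over the 12 libraries, was 0.15, 0.04 and −0.07 in replicates 1, 2 and 3 of sgCTRL_siFEM1B. It was 0.23, 0.12 and 0.22 in sgBACH1_siFEM1B, and −0.16, −0.15 and −0.19 in sgCTRL_siCTRL. Replicate 1 was thus the highest and replicate 3 the lowest of sgCTRL_siFEM1B, and replicate 2 the lowest of sgBACH1_siFEM1B. Several results are also given without 1 of these libraries. These libraries were picked from the member values, so such fits show dependence on a library and are no separate support. Fem1b was at 43.00, 57.95 and 54.2 CPM in the 3 replicates of sgCTRL_siFEM1B and at 46.2, 54.5 and 46.4 CPM in sgBACH1_siFEM1B, so that it was lowest where the members were highest in sgCTRL_siFEM1B and highest where they were lowest in sgBACH1_siFEM1B. A link between the 2 was not tested.

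**Figure D1:**
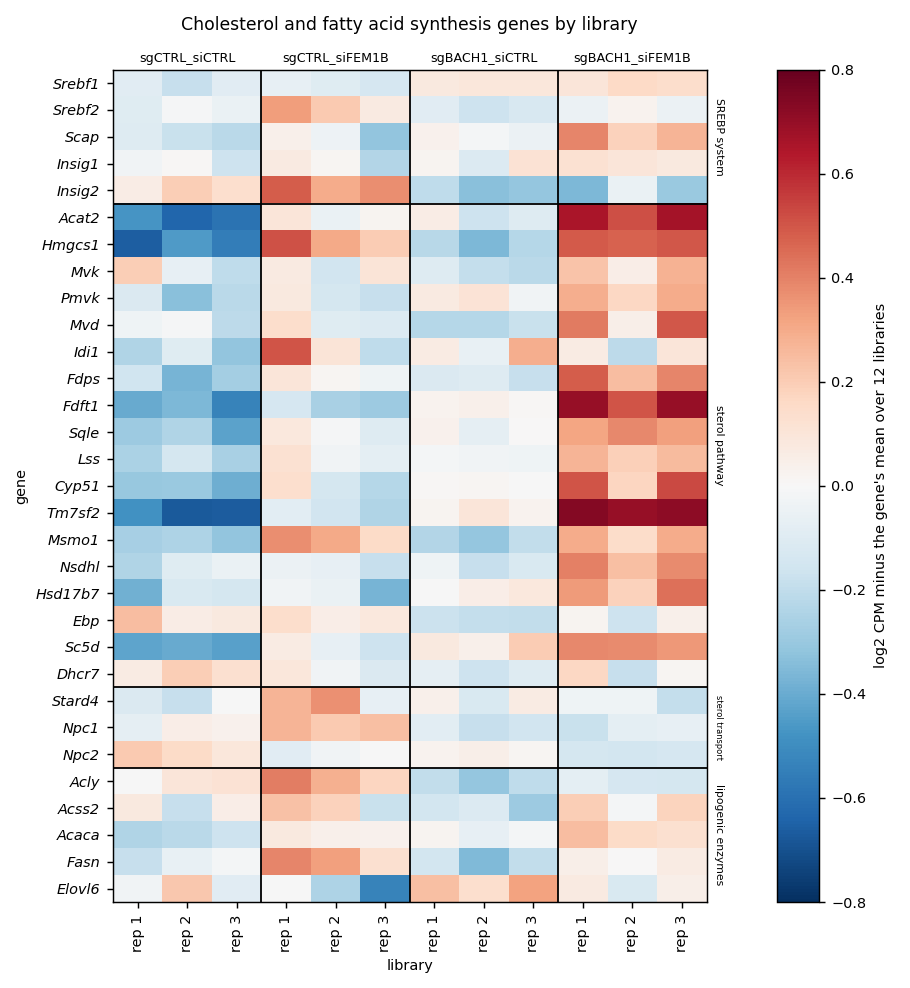
Each of the 31 members (rows, in pathway order) in each of the 12 libraries (columns), as log2 CPM minus the gene's mean over the libraries, on a colour scale from −0.8 to 0.8. Tm7sf2, Acat2 and Fdft1 are lowest in sgCTRL_siCTRL and highest in sgBACH1_siFEM1B and, with Hmgcs1, have the widest range, while other sterol pathway rows differ, such as Ebp and Mvd, lowest in sgBACH1_siCTRL.

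FEM1B siRNA raised most of the sterol pathway and part of the fatty acid enzymes. In control cells 17 of 31 members were called higher and 2 lower at a Benjamini-Hochberg adjusted p under 0.05 in the edgeR quasi-likelihood test over all genes, with a median log2 fold change of 0.23. In knockout cells 18 were called higher and 1 lower, with a median of 0.26. Over all 13281 genes tested, 45% were called in control cells, 22.1% higher and 22.9% lower, and 41.7% in knockout cells, 21.9% higher and 19.8% lower, with medians of 0 and 0.02. The replicates of the siRNA groups did not overlap for 16 members higher and 1 lower in control cells, against 25.3% and 26.9% of all genes, and for 23 higher and 2 lower in knockout cells, against 27.3% and 24.3%. Rises and falls are given from here on as log2 fold changes ± standard error. The shifts were modest: the largest, that of Hmgcs1, was under 2-fold. The members together took 0.303% to 0.308% of all counts in sgCTRL_siCTRL and 0.335% to 0.391% in sgCTRL_siFEM1B, and 0.303% to 0.318% and 0.362% to 0.388% in the corresponding knockout groups. Without replicate 1 of sgCTRL_siFEM1B 15 members were called higher in control cells, beside 2802 of all 13426 genes tested. Without replicate 3 there were 20, beside 2720 of 13433 genes. In knockout cells 15 members were called higher without replicate 1 of sgBACH1_siFEM1B, beside 2534 of 13413 genes. Without replicate 2 there were 21, beside 2736 of 13431 genes. A change in every cell and a change in a part of the cells cannot be told apart in bulk RNA.

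**Figure D2:**
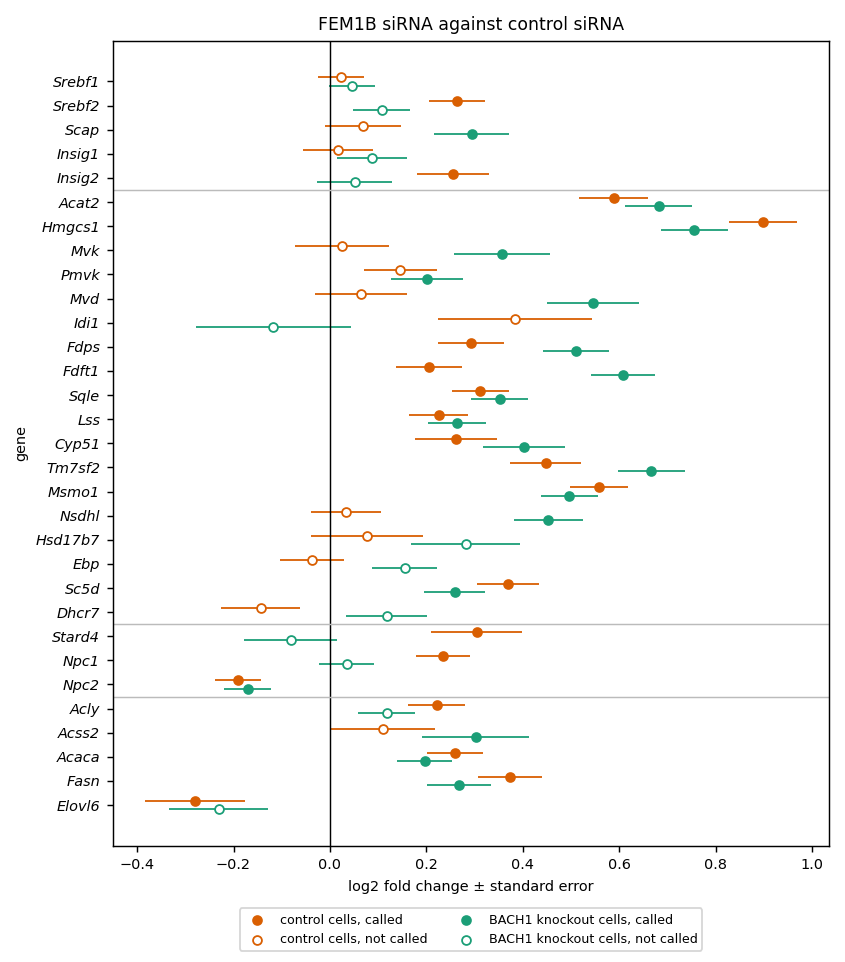
Log2 fold change of FEM1B siRNA against control siRNA for each member (rows, in pathway order, separated by role), with its standard error as a bar, in control cells (orange) and BACH1 knockout cells (green). Filled points passed the test; from Acat2 to Sc5d filled points lie to the right of 0, and Npc2 and Elovl6 lie to the left.

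The siRNA comparisons in control and in knockout cells share no libraries. Of the 17 called higher in control cells and the 18 called higher in knockout cells, 12 were in both lists: Acat2, Hmgcs1, Fdps, Fdft1, Sqle, Lss, Cyp51, Tm7sf2, Msmo1, Sc5d, Acaca and Fasn. Srebf2, Insig2, Stard4, Npc1 and Acly were called in control cells and not in knockout cells, and Scap, Mvk, Pmvk, Mvd, Nsdhl and Acss2 the reverse. Only for Mvd and Nsdhl among these 11 did the difference between genotypes itself pass the test.

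In the SREBP system the mRNA of the sterol regulator itself rose, and that of its lipogenic relative did not pass the test. Srebf2, which encodes the SREBP of the sterol genes, was at 220.1, 234 and 227 CPM in the 3 libraries of sgCTRL_siCTRL and 297, 273 and 247 CPM in sgCTRL_siFEM1B, with no overlap. It rose by 0.26 ± 0.06 (adjusted p = 0.00108). In knockout cells Srebf2 was at 221, 210.4 and 215 CPM with control siRNA and 228, 240.3 and 228 CPM with FEM1B siRNA, a narrower gap with a log2 fold change of 0.11 ± 0.06 (adjusted p = 0.155). Srebf1, which encodes the SREBPs of the lipogenic genes, was at 214, 201 and 214 CPM in sgCTRL_siCTRL and 218, 213 and 207 in sgCTRL_siFEM1B, at 0.02 ± 0.05 (adjusted p = 0.722). In knockout cells it was at 240.5, 242 and 243 CPM with control siRNA and 243, 255 and 252 CPM with FEM1B siRNA, at 0.05 ± 0.05 (adjusted p = 0.461). All 6 knockout libraries were above all 6 control libraries for Srebf1.

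Scap and the INSIG genes went separate ways. Scap, the SREBP escort, was at 64.5, 62.4 and 60.9 CPM in sgBACH1_siCTRL and 82.5, 71.6 and 76.04 CPM in sgBACH1_siFEM1B, and rose by 0.29 ± 0.08 (adjusted p = 0.00479). In control cells its libraries overlapped, at 58.6, 55.8 and 54.2 CPM with control siRNA and 64.7, 61.4 and 50.5 CPM with FEM1B siRNA. The log2 fold change there was 0.07 ± 0.08 (adjusted p = 0.504), and 0.18 (adjusted p = 0.044) without replicate 3 of sgCTRL_siFEM1B. Insig1, an ER anchor and a well-known SREBP target, stayed between 124 and 159 CPM in all 12 libraries, at 0.02 ± 0.07 (adjusted p = 0.878) in control cells and 0.09 ± 0.07 (adjusted p = 0.353) in knockout cells. Insig2, the other anchor, was at 59.2, 65.04 and 62.4 CPM in sgCTRL_siCTRL and 79.4, 69.9 and 73.4 CPM in sgCTRL_siFEM1B, all higher, and rose by 0.25 ± 0.07 (adjusted p = 0.00883). In knockout cells Insig2 was lower and its libraries overlapped, at 49.3, 45.1 and 45.8 CPM with control siRNA and 44.3, 54.6 and 46.3 CPM with FEM1B siRNA, with 0.05 ± 0.08 (adjusted p = 0.633).

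Sterol pathway enzymes had 10 of 18 members called higher in control cells and 14 of 18 in knockout cells, and none lower in either, where edgeR's unadjusted p under 0.05 and DESeq2 likewise gave 0 lower. Hmgcs1, cytosolic HMG-CoA synthase at the head of the mevalonate route, had the largest rise in both genotypes. It was at 116, 134 and 125 CPM in sgCTRL_siCTRL and 262, 226 and 211 CPM in sgCTRL_siFEM1B. In knockout cells it was at 157, 143 and 157 CPM with control siRNA and 258, 254 and 259 CPM with FEM1B siRNA. The groups were far apart relative to their replicates, and Hmgcs1 rose by 0.90 ± 0.07 (adjusted p = 7.09e-09) and 0.76 ± 0.07 (adjusted p = 8.38e-08). Acat2, the thiolase that joins acetyl-CoA units ahead of it, was at 49.9, 44.6 and 46.04 CPM in sgCTRL_siCTRL, 74.2, 66.9 and 70.3 CPM in sgCTRL_siFEM1B, 72.2, 61.8 and 64.6 CPM in sgBACH1_siCTRL and 109, 99.1 and 110.0 CPM in sgBACH1_siFEM1B. It rose by 0.59 ± 0.07 (adjusted p = 1.67e-06) in control and 0.68 ± 0.07 (adjusted p = 2.59e-07) in knockout cells. The knockout libraries with the siRNA were the highest of all 12 for Acat2.

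From mevalonate to the demethylation of lanosterol, the kinases were called in knockout cells alone, and Fdps, Sqle, Lss and Cyp51 in both genotypes. Mvk and Pmvk, which phosphorylate mevalonate, were at 0.03 ± 0.10 (adjusted p = 0.86) and 0.15 ± 0.08 (adjusted p = 0.125) in control cells and rose by 0.36 ± 0.10 (adjusted p = 0.00651) and 0.20 ± 0.07 (adjusted p = 0.0353) in knockout cells. The call of Pmvk in knockout cells ended when replicate 1 or 3 of sgBACH1_siCTRL, or of sgBACH1_siFEM1B, was left out. Idi1, isopentenyl diphosphate isomerase, had the fewest counts of the members and wide replicates, and was at 0.38 ± 0.16 (adjusted p = 0.0564) and −0.12 ± 0.16 (adjusted p = 0.589). Idi1 was called higher in control cells without replicate 3 of sgCTRL_siFEM1B (0.55, adjusted p = 0.00778) and by DESeq2 (0.40, adjusted p = 0.0456). Fdps, farnesyl diphosphate synthase, rose by 0.29 ± 0.07 in control and 0.51 ± 0.07 in knockout cells. Sqle, squalene epoxidase, was at 131, 136 and 119 CPM in sgCTRL_siCTRL and 169.9, 159 and 149 CPM in sgCTRL_siFEM1B. It was at 164, 152 and 161 CPM in sgBACH1_siCTRL and 199.6, 209 and 201 CPM in sgBACH1_siFEM1B, and rose by 0.31 ± 0.06 (adjusted p = 0.000271) and 0.35 ± 0.06 (adjusted p = 8.63e-05). For Sqle no FEM1B siRNA library overlapped the control siRNA libraries of its genotype. Lss, lanosterol synthase, rose by 0.23 ± 0.06 and 0.26 ± 0.06, and Cyp51, lanosterol demethylase, by 0.26 ± 0.09 and 0.40 ± 0.08. The call of Cyp51 in control cells ended without replicate 1 of sgCTRL_siFEM1B (0.15, adjusted p = 0.141) and without replicate 3 of sgCTRL_siCTRL (0.23, adjusted p = 0.0709).

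Past lanosterol, the reductase, the methyl oxidase and the desaturase rose in both genotypes. Tm7sf2, a sterol reductase, was at 24.8, 21.8 and 21.8 CPM in sgCTRL_siCTRL, 32.7, 31.2 and 29.3 CPM in sgCTRL_siFEM1B, 35.2, 36.97 and 35.3 CPM in sgBACH1_siCTRL and 57.5, 56.03 and 56.97 CPM in sgBACH1_siFEM1B. No 2 of its groups overlapped, and it rose with the siRNA by 0.45 ± 0.07 (adjusted p = 5.61e-05) and 0.67 ± 0.07 (adjusted p = 3.61e-07). Msmo1, the methylsterol monooxygenase, was at 241, 244 and 233 CPM in sgCTRL_siCTRL and 375, 358 and 322 CPM in sgCTRL_siFEM1B. The knockout groups were at 246, 234 and 253 CPM with control siRNA and 356, 321 and 357 CPM with FEM1B siRNA. It rose by 0.56 ± 0.06 (adjusted p = 3.68e-07) and 0.50 ± 0.06 (adjusted p = 2.08e-06), and its level followed the siRNA with little difference by genotype. Sc5d, a sterol desaturase, was at 54.5, 55.2 and 54.1 CPM in sgCTRL_siCTRL and 76.5, 69.8 and 65.02 CPM in sgCTRL_siFEM1B, and at 77.1, 75.2 and 84.1 CPM with control siRNA and 95.4, 94.7 and 92.8 CPM with FEM1B siRNA in the knockout groups. It rose by 0.37 ± 0.06 (adjusted p = 0.00011) and 0.26 ± 0.06 (adjusted p = 0.00256). Of the other late enzymes, 3 did not pass the test in either genotype. Ebp, the sterol isomerase, was at −0.04 ± 0.07 and 0.15 ± 0.07, and Dhcr7, which makes cholesterol in the final reduction, at −0.14 ± 0.08 and 0.12 ± 0.08. Hsd17b7, a ketosterol reductase, was at 0.08 ± 0.12 and 0.28 ± 0.11. Both Ebp (0.22, adjusted p = 0.0147) and Dhcr7 (0.21, adjusted p = 0.049) were called higher in knockout cells without replicate 2 of sgBACH1_siFEM1B, and Hsd17b7 too (0.35, adjusted p = 0.0278). That library had the lowest member level of its group. Of 20 alternatives, Ebp and Dhcr7 were called in that 1 alone, and Hsd17b7 in 6.

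**Figure D3:**
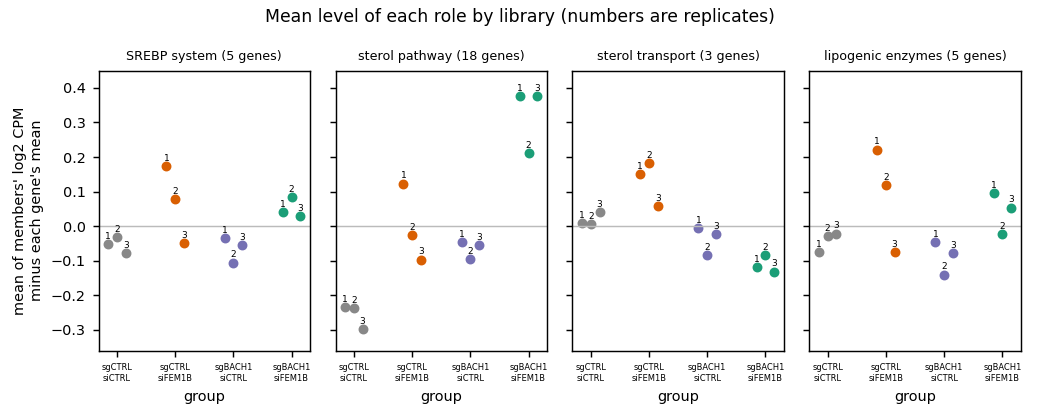
Mean over the members of each role of log2 CPM minus the gene's own mean over the 12 libraries, 1 point per library with its replicate number, by group. The sterol pathway runs from −0.30 to −0.23 in sgCTRL_siCTRL up to 0.21 to 0.38 in sgBACH1_siFEM1B, while the libraries of sterol transport are highest in sgCTRL_siFEM1B.

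Sterol transport did not move as a unit. Npc1, the membrane protein that moves cholesterol out of lysosomes, was at 82.3, 89.5 and 88.3 CPM in sgCTRL_siCTRL and 104, 99.9 and 102 CPM in sgCTRL_siFEM1B, without overlap, and rose by 0.23 ± 0.06 (adjusted p = 0.00199). The knockout groups had 81.3, 75.9 and 77.7 CPM with control siRNA and 76.4, 81.9 and 82.4 CPM with FEM1B siRNA, at 0.03 ± 0.06 (adjusted p = 0.66). Npc2, its soluble partner in the lysosome, fell: it was at 266, 255 and 245 CPM in sgCTRL_siCTRL and 216, 226 and 229.5 CPM in sgCTRL_siFEM1B, and at 234, 238 and 232 CPM with control siRNA and 209, 208 and 209 CPM with FEM1B siRNA in the knockout groups. The log2 fold changes of Npc2 were −0.19 ± 0.05 (adjusted p = 0.00288) and −0.17 ± 0.05 (adjusted p = 0.00743). The call in knockout cells ended with chromosome medians removed (−0.12, adjusted p = 0.0531). Npc2 was lower in all FEM1B siRNA libraries than in any control siRNA library of the same genotype. Stard4, a cytosolic sterol carrier, was at 28.8, 27.5 and 31.1 CPM in sgCTRL_siCTRL and 37.6, 40.1 and 29.8 CPM in sgCTRL_siFEM1B, which overlap, and rose by 0.30 ± 0.10 (adjusted p = 0.0134). That call ended without replicate 2 of either group (adjusted p = 0.0624 and 0.0958). In knockout cells Stard4 was at 32.05, 28.7 and 32.6 CPM with control siRNA and 30.4, 30.4 and 27.3 CPM with FEM1B siRNA, at −0.08 ± 0.10 (adjusted p = 0.53).

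Of the lipogenic enzymes, fatty acid synthase and acetyl-CoA carboxylase rose in both genotypes, and the elongase was called lower in control cells. Fasn, which builds palmitate, was at 295, 323 and 332 CPM in sgCTRL_siCTRL and 440.3, 422 and 368 CPM in sgCTRL_siFEM1B, and at 303, 263 and 292 CPM with control siRNA and 346, 336 and 351 CPM with FEM1B siRNA in the knockout groups. It rose by 0.37 ± 0.07 (adjusted p = 0.00013) and 0.27 ± 0.07 (adjusted p = 0.00309). Acaca, which makes its malonyl-CoA substrate, was at 54.6, 55.3 and 57.3 CPM in sgCTRL_siCTRL and 67.9, 66.2 and 65.9 CPM in sgCTRL_siFEM1B, and at 65.4, 61.5 and 63.7 CPM with control siRNA and 76.3, 71.7 and 70.4 CPM with FEM1B siRNA in the knockout groups. It rose by 0.26 ± 0.06 (adjusted p = 0.00104) and 0.20 ± 0.06 (adjusted p = 0.00894), the latter call ending without replicate 1 of sgBACH1_siFEM1B (0.16, adjusted p = 0.0596). Replicates of the siRNA groups did not overlap for either gene.

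Acly and Acss2 supply acetyl-CoA, and the difference between genotypes in their siRNA response did not pass the test, at −0.10 ± 0.08 (adjusted p = 0.481) and 0.19 ± 0.16 (adjusted p = 0.485). Acly, ATP citrate lyase, was at 274, 294 and 298 CPM in sgCTRL_siCTRL and 365, 335 and 309 CPM in sgCTRL_siFEM1B, and rose by 0.22 ± 0.06 (adjusted p = 0.0043). Acly in knockout cells was at 239.5, 222 and 239 CPM with control siRNA and 260.4, 251 and 249 CPM with FEM1B siRNA, at 0.12 ± 0.06 (adjusted p = 0.118). Acss2, which activates acetate, was at 20.6, 17.2 and 20.3 CPM with control siRNA and 23.02, 22.2 and 17.3 CPM with FEM1B siRNA in control cells, at 0.11 ± 0.11 (adjusted p = 0.438), and at 17.7, 18.2 and 15.99 CPM with control siRNA and 22.5, 19.3 and 22.1 CPM with FEM1B siRNA in the knockout groups. Acss2 rose by 0.30 ± 0.11 (adjusted p = 0.0338) there, a call that ended without replicate 1 or 3 of either knockout group (adjusted p = 0.0614 to 0.139). Elovl6, which elongates palmitate, was at 60.2, 71.2 and 57.7 CPM in sgCTRL_siCTRL and 61.3, 51.7 and 42.4 CPM in sgCTRL_siFEM1B, with replicate 1 inside the range of the controls, and fell by 0.28 ± 0.10 (adjusted p = 0.0322). The call ended without replicate 2 of sgCTRL_siCTRL (adjusted p = 0.197), replicate 2 (0.0738) or 3 (0.241) of sgCTRL_siFEM1B, or in a fit to the 6 libraries (0.0567). In knockout cells Elovl6 was at 72.5, 67.3 and 76.6 CPM with control siRNA and 64.6, 56.4 and 63.4 CPM with FEM1B siRNA, at −0.23 ± 0.10 (adjusted p = 0.0761), and it was called lower in the fit to those 6 libraries (adjusted p = 0.00956).

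Of 33 other pathway genes tested, 12 (36.4%) were called higher and 8 (24.2%) lower with the siRNA in control cells, against 22.1% and 22.9% of all genes, with a median of 0.07. In knockout cells 9 (27.3%) were called higher and 5 (15.2%) lower, near the 21.9% and 19.8% of all genes, with a median of 0.01. All 7 genes of sterol sensing and SREBP processing were called in control cells, 5 of them lower, and in knockout cells 1 was called higher and 3 lower. Mbtps2, the Golgi protease that makes the final SREBP cut, was at 66.1, 74.5 and 69.8 CPM in sgCTRL_siCTRL and 32.4, 35.8 and 30.5 CPM in sgCTRL_siFEM1B, and fell by 1.09 ± 0.07 (adjusted p = 7.46e-10). In knockout cells it was at 57.4, 53.9 and 54.02 CPM with control siRNA and 31.5, 30.6 and 33.6 CPM with FEM1B siRNA and fell by 0.79 ± 0.07 (adjusted p = 8.5e-08). The transcript of this SREBP protease was thus down in the same libraries in which most sterol enzymes were up, and a link between them was not tested. Rnf145, an ER ubiquitin ligase of sterol sensing, was at 134, 135 and 132 CPM in sgCTRL_siCTRL and 256, 266 and 288 CPM in sgCTRL_siFEM1B, and rose by 1.02 ± 0.06 (adjusted p = 2.14e-10), and by 0.66 ± 0.06 (adjusted p = 7.49e-08) in knockout cells. Its siRNA effect was smaller in knockout cells by 0.36 ± 0.08 (adjusted p = 0.0179). Erlin1, an ER scaffold of that machinery, fell by 0.44 ± 0.06 and 0.67 ± 0.06.

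Sterol and isoprenoid enzymes outside the member list were not called in control cells in any of 7 cases, with Acat1, the mitochondrial thiolase, at 0.11 ± 0.06 (adjusted p = 0.175). At an unadjusted p under 0.05 in edgeR, 1 of the 7 would pass. In knockout cells Acat1 was called higher, at 0.33 ± 0.06. Of 12 fatty acid genes 6 were called higher and 3 lower in control cells and 4 and 1 in knockout cells. Slc25a1, the mitochondrial citrate exporter, rose by 0.29 ± 0.05 and 0.32 ± 0.05, and Mid1ip1, an activator of acetyl-CoA carboxylase, by 0.38 ± 0.07 and 0.41 ± 0.07. Scd2, a stearoyl-CoA desaturase, rose by 0.30 ± 0.05 in control cells and was at 0.02 ± 0.05 (adjusted p = 0.741) in knockout cells. Of 7 genes of uptake, efflux and storage 4 were called higher in control cells, and 3 higher and 1 lower in knockout cells. Soat1, which esterifies cholesterol for storage, rose by 0.38 ± 0.05 in control cells and was at −0.01 ± 0.05 in knockout cells. Of these 33 genes, the knockout line had 16 at a higher and 6 at a lower called level under control siRNA (48.5% and 18.2%, against 24.2% and 26.3% of all genes), and 14 and 6 under FEM1B siRNA (42.4% and 18.2%, against 28.2% and 26.4%).

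BACH1 knockout cells had higher levels of many sterol pathway enzymes than control cells, and lower levels of Insig2 and Acly under either siRNA. Under control siRNA 11 of 31 members were called higher and 6 lower, with a median log2 fold change of 0.13, where 50.5% of all genes tested were called, 24.2% higher and 26.3% lower, and the median was −0.02. Under FEM1B siRNA 14 were called higher and 6 lower, with a median of 0.18, against 54.6% of all genes called, 28.2% higher and 26.4% lower, and a median of 0.01. Replicates did not overlap for 14 members higher and 6 lower under control siRNA, against 28.7% and 31.6% of all genes, and for 15 higher and 7 lower under FEM1B siRNA, against 29.1% and 27.9%. Of the 18 sterol pathway members, 9 were higher and 2 lower under control siRNA, and 12 were higher and none lower under FEM1B siRNA, with 0 lower at an unadjusted p under 0.05 and 0 by DESeq2. The comparison under control siRNA uses the same sgCTRL_siCTRL libraries as the siRNA comparison in control cells, so that their values are set side by side and not counted against each other.

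Several of these differences lie on chromosomes whose median gene differed between the lines. The median difference, knockout minus control under control siRNA, on the log2 scale was 0.43 for chromosome 19, 0.28 for 9, 0.24 for 14 and −0.24 for 12. Tm7sf2 (chromosome 19) was higher in knockout cells by 0.65 ± 0.07 (adjusted p = 3.26e-07), and with the chromosome medians removed the value was 0.22 (adjusted p = 0.0187). Sc5d (chromosome 9) was higher by 0.53 ± 0.06 (adjusted p = 9.59e-07), or 0.25 (adjusted p = 0.00321) with the medians removed. Fdft1 (chromosome 14), squalene synthase, was higher by 0.46 ± 0.07 (adjusted p = 1.19e-05), or 0.21 (adjusted p = 0.0149). In each of these 3 genes the difference under control siRNA was smaller with the medians removed, and the call stayed. Under FEM1B siRNA the values went from 0.87 ± 0.07 to 0.44 (adjusted p = 3.14e-05) for Tm7sf2 and from 0.86 ± 0.07 to 0.62 (adjusted p = 2.33e-07) for Fdft1. The call of Sc5d under FEM1B siRNA ended, from 0.42 ± 0.06 (adjusted p = 1.36e-05) to 0.14 (adjusted p = 0.073). Removing the medians took Lss, on chromosome 10, from 0.19 ± 0.06 (adjusted p = 0.0131) to 0.07 (adjusted p = 0.409), and the call of Lss also ended without replicate 3 of sgCTRL_siCTRL (adjusted p = 0.0592). With the medians removed 14 members were called higher and 4 lower under each siRNA. Of all 13281 genes, 2805 were called higher and 2999 lower in that fit under control siRNA, and 3265 and 3353 under FEM1B siRNA.

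Sterol enzymes on other chromosomes also differed. Acat2 (chromosome 17) was higher in knockout cells by 0.50 ± 0.07 (adjusted p = 8.07e-06) under control siRNA and by 0.59 ± 0.07 (adjusted p = 5.44e-07) under FEM1B siRNA, and by 0.39 (adjusted p = 0.000146) and 0.45 (adjusted p = 1.78e-05) with the medians removed. Sqle (chromosome 15) was higher by 0.31 ± 0.06 and 0.35 ± 0.06, Cyp51 by 0.34 ± 0.09 and 0.48 ± 0.08, and Pmvk by 0.27 ± 0.08 and 0.33 ± 0.07. Hmgcs1 was higher by 0.28 ± 0.07 (adjusted p = 0.00225) under control siRNA and was at 0.14 ± 0.07 (adjusted p = 0.0903) under FEM1B siRNA, where without replicate 1 of sgCTRL_siFEM1B it was called (0.23, adjusted p = 0.005). Ebp, on the X chromosome, was lower, by 0.32 ± 0.07 under control siRNA (adjusted p = 0.00051), with 81.1, 70.97 and 71.97 CPM in sgCTRL_siCTRL and 60.6, 59.8 and 59.4 CPM in sgBACH1_siCTRL. Dhcr7 was lower by 0.24 ± 0.08 (adjusted p = 0.0187), a call that ended without replicate 2 of either group (adjusted p = 0.0772 and 0.0663). Msmo1 was close to even, at 0.03 ± 0.06 (adjusted p = 0.692).

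**Figure D4:**
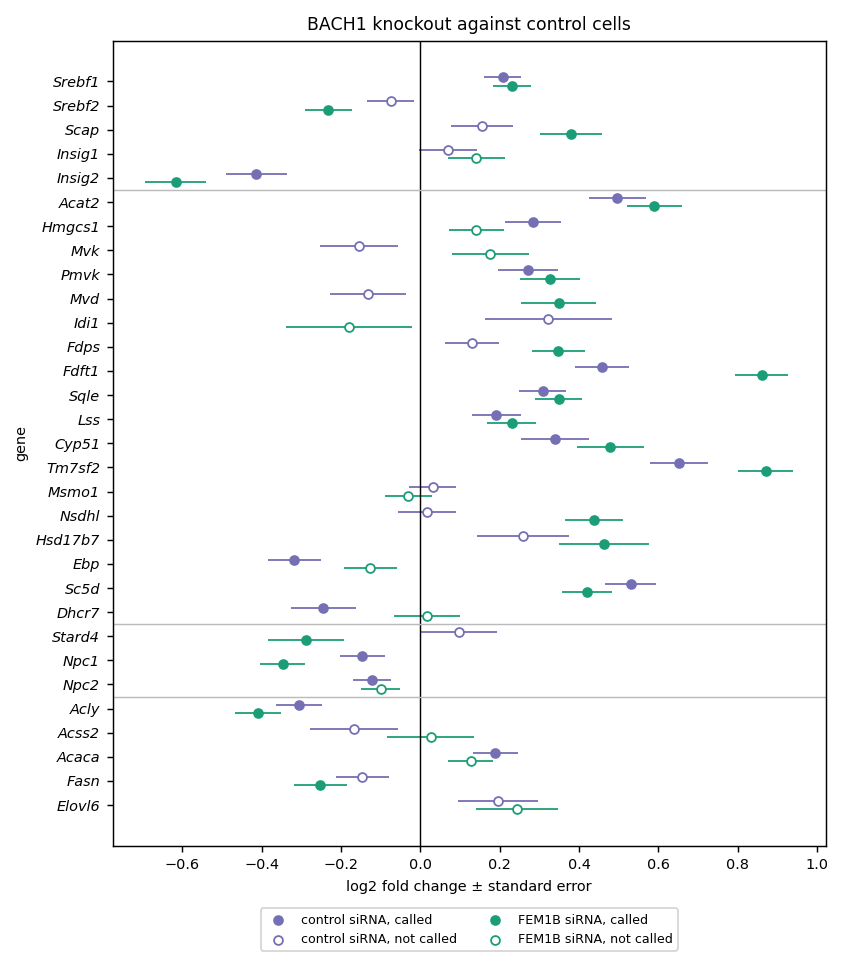
Log2 fold change of BACH1 knockout against control cells for each member (rows, in pathway order, separated by role), with its standard error as a bar, under control siRNA (purple) and FEM1B siRNA (green). Filled points passed the test; Tm7sf2, Fdft1 and Acat2 lie farthest to the right and Insig2 farthest to the left under FEM1B siRNA.

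Among the regulators, Insig2 was lower in knockout cells and Srebf1 higher. Insig2 was lower by 0.41 ± 0.08 (adjusted p = 0.000148) under control siRNA and 0.62 ± 0.08 (adjusted p = 1.17e-06) under FEM1B siRNA, with every knockout library below every control library. Srebf1 was higher by 0.21 ± 0.05 (adjusted p = 0.00117) and 0.23 ± 0.05 (adjusted p = 0.000411), again without overlap. Srebf2 was at −0.08 ± 0.06 (adjusted p = 0.302) under control siRNA and lower by 0.23 ± 0.06 (adjusted p = 0.00235) under FEM1B siRNA, or −0.11 (adjusted p = 0.117) with the chromosome medians removed. Scap (chromosome 9) was higher by 0.38 ± 0.08 (adjusted p = 0.000371) under FEM1B siRNA, or 0.10 (adjusted p = 0.302) with the medians removed.

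Transport and lipogenic genes were lower or mixed in knockout cells. Acly was lower under each siRNA, by 0.31 ± 0.06 (adjusted p = 0.000219) and 0.41 ± 0.06 (adjusted p = 7.62e-06), and Fasn under FEM1B siRNA, by 0.25 ± 0.07 (adjusted p = 0.00321). Acaca was higher under control siRNA by 0.19 ± 0.06 (adjusted p = 0.00968), while Acss2 and Elovl6 were not called, at −0.17 ± 0.11 and 0.20 ± 0.10. Elovl6 was called higher in the fit to the 6 libraries (0.22, adjusted p = 0.0115). Npc1 was lower by 0.15 ± 0.06 (adjusted p = 0.0368) and 0.35 ± 0.06 (adjusted p = 3.42e-05). With the chromosome medians removed the second became −0.18 (adjusted p = 0.0139). The first of these calls ended in 10 of the 20 alternatives with the sign kept, and turned to 0.04 (adjusted p = 0.611) with the chromosome medians removed. Npc2 (chromosome 12) was at −0.12 ± 0.05 (adjusted p = 0.042) and −0.10 ± 0.05 (adjusted p = 0.0858). The call under control siRNA ended in 12 of the 20 alternatives with the sign kept, and both values turned to 0.12 (adjusted p = 0.0548) and 0.16 (adjusted p = 0.00909) with the medians removed. Stard4 under control siRNA was at 0.10 ± 0.10 (adjusted p = 0.421), and was called higher with the medians removed (0.28, adjusted p = 0.0224). Stard4 was lower under FEM1B siRNA by 0.29 ± 0.10 (adjusted p = 0.0155), or −0.12 (adjusted p = 0.325) with the medians removed. That call also ended without replicate 1 (adjusted p = 0.0551) or 2 (0.11) of sgCTRL_siFEM1B or replicate 3 (0.0734) of sgBACH1_siFEM1B.

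The test of the difference between genotypes in the siRNA response called 3 members, Mvd, Fdft1 and Nsdhl, all with a larger rise in knockout cells, and none in the other direction by edgeR or by DESeq2, where 3 members had an unadjusted p under 0.05 in edgeR. Over all genes 6.08% were called in this interaction, 3.48% higher and 2.6% lower. Mvd, the decarboxylase that makes isopentenyl diphosphate, was at 53.4, 54.5 and 47.4 CPM in sgCTRL_siCTRL and 60.3, 51.3 and 50.8 CPM in sgCTRL_siFEM1B, which overlap. In knockout cells it was at 46.7, 46.7 and 48.3 CPM with control siRNA and 73.1, 56.5 and 77.4 CPM with FEM1B siRNA, without overlap and with replicate 2 lowest. The interaction was 0.48 ± 0.13 (adjusted p = 0.0386). Fdft1 (chromosome 14, 63145150 to 63181687, mm10), which commits farnesyl diphosphate to sterols, was at 56.02, 57.7 and 51.00 CPM in sgCTRL_siCTRL, 67.4, 61.9 and 60.5 CPM in sgCTRL_siFEM1B, 75.5, 76.2 and 74.6 CPM in sgBACH1_siCTRL and 120.2, 105 and 119.9 CPM in sgBACH1_siFEM1B. The siRNA raised Fdft1 by 0.20 ± 0.07 in control and 0.61 ± 0.07 in knockout cells, an interaction of 0.40 ± 0.09 (adjusted p = 0.0174). The call of Fdft1 in control cells ended without replicate 1 of sgCTRL_siFEM1B (0.16, adjusted p = 0.0969) or replicate 3 of sgCTRL_siCTRL (0.15, adjusted p = 0.114). Nsdhl, a sterol dehydrogenase of methyl removal, was at 35.97, 39.7 and 40.8 CPM in sgCTRL_siCTRL, 41.1, 40.5 and 37.4 CPM in sgCTRL_siFEM1B, 41.5, 37.4 and 39.00 CPM in sgBACH1_siCTRL and 56.1, 50.1 and 55.04 CPM in sgBACH1_siFEM1B, so that 1 group alone was raised. Its interaction was 0.42 ± 0.10 (adjusted p = 0.0209).

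Leaving out a single library ended these calls. None of the 3 was called without replicate 3 of sgBACH1_siCTRL, or without replicate 1 or 3 of sgBACH1_siFEM1B, where adjusted p-values were 0.0539 to 0.128, while the log2 values stayed between 0.37 and 0.50. Over all genes, 305, 297 and 299 were called in those fits in that order, against 807 with all 12 libraries. Without replicate 2 of sgBACH1_siFEM1B, 5 members were called higher, Dhcr7 (0.35) and Fdps (0.28) joining them, and Insig2 (−0.30) lower. In that fit 1859 of all 13431 genes tested were called. Without replicate 3 of sgCTRL_siFEM1B, Stard4 (−0.53) and Srebf2 (−0.25) were called with a smaller siRNA effect in knockout cells. There Mvd was no longer called (0.41, adjusted p = 0.0757), and 1002 of all 13433 genes were. With all 12 libraries Stard4 was at −0.39 ± 0.14 (adjusted p = 0.0929) and Idi1 at −0.50 ± 0.23 (adjusted p = 0.186).

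**Figure D5:**
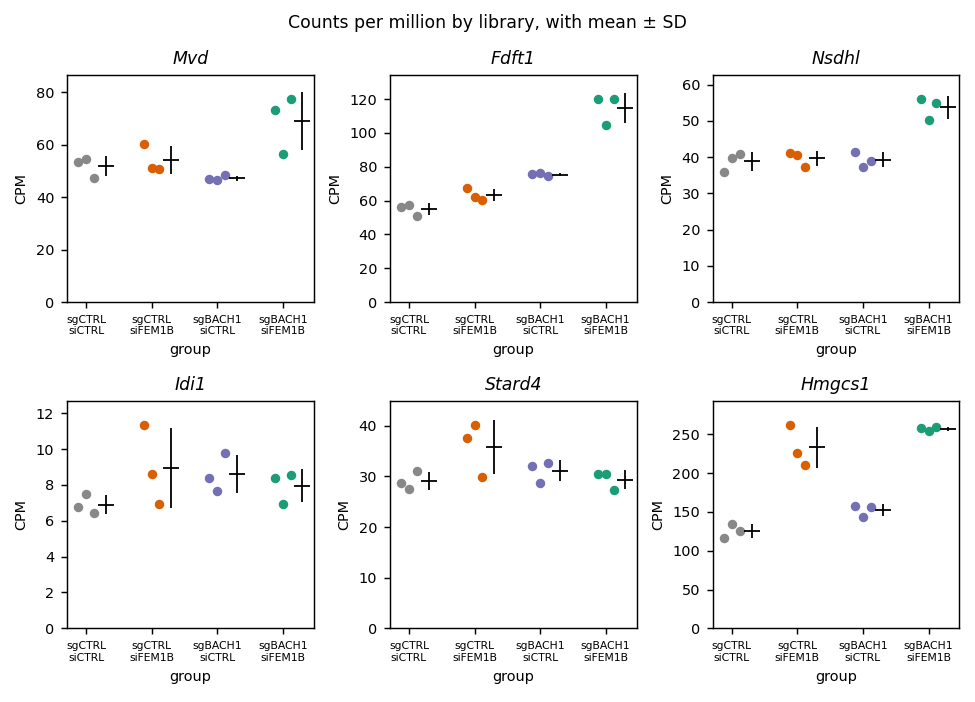
CPM (y axis, from 0) in each library of the 4 groups for Mvd, Fdft1, Nsdhl, Idi1, Stard4 and Hmgcs1, with the mean ± SD of each group as a bar to the right. Mvd, Fdft1 and Nsdhl are highest in sgBACH1_siFEM1B, while Hmgcs1 is at 211 to 262 CPM with the siRNA in either genotype.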

How the data were processed

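RNA-seq was measured in 12 libraries of mouse KP cells, 3 in each of 4 groups. The authors deposited raw counts (whole numbers) for each gene symbol. Per the submitters' processing notes, the build was mm10 and the tools were featureCounts 1.6.4 of Subread, DESeq2 1.26.0 and SAMtools 1.9, with no role or order given. The library kit marks strand, per the labels' protocols, but no annotation or strand setting of the counting is stated, so overlapping or antisense genes could share reads.

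Genes kept by edgeR's filterByExpr, given the groups and a minimum count of 10, entered edgeR 4.0.16 (R 4.3.3). This filter is separate from the rule for the members. The steps were TMM scaling, 1 quasi-likelihood fit over the 4 groups and Benjamini-Hochberg adjustment over all 13281 genes, called below 0.05. Values are CPM with TMM scaling, errors are SE for log2 fold changes, and the test was checked on simulated data. Replicate library totals were 16539168 to 22196999 counts. How the replicates were separated is not stated, so p-values measure the spread between these libraries. Leave-one-out fits, a 6-library fit, other filters, DESeq2 1.42.0 tests and size factors, limma-voom (limma 3.58.1), the replicate block and removal of chromosome medians were tried.

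The members and gene lists were chosen with earlier results of these data known. Library values are given for up to 5 members per role with the smallest p in the siRNA comparisons and in knockout cells under control siRNA, and for members called in the interaction. Other pathway genes were named by smallest p, up to 3 per role, and a few that this rule would name are not reported here. Promoters are from RefSeq.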

Additional observations from a re-analysis of the deposited data

Results flagged for a closer look

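The siRNA response of 3 of 31 members (9.68%) differed between control and BACH1 knockout cells by the test of the difference itself. Over all genes 6.08% were called in that test. The value, knockout minus control on the log2 scale, was 0.48 for Mvd (adjusted p = 0.0386), 0.40 for Fdft1 (adjusted p = 0.0174) and 0.42 for Nsdhl (adjusted p = 0.0208), each with 3 libraries a group in edgeR's quasi-likelihood test. The knockout libraries with FEM1B siRNA were above the knockout libraries with control siRNA in 3 of 3 for each gene. This describes the rise in knockout cells and not the difference between genotypes. Replicate 2 of sgBACH1_siFEM1B was the lowest of its 3 libraries for all 3 genes.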

How the results depend on the processing

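Across 20 alternatives, 13 of the 17 member calls in knockout against control cells under control siRNA held in every one, as did 15 of 20 under FEM1B siRNA and 15 of 19 in each siRNA comparison. None of the 3 interaction calls held in every one of 19. Adjusted p-values in the alternatives that ended them were 0.0501 to 0.128 for Mvd, 0.0505 to 0.0634 for Fdft1 and 0.0607 to 0.0712 for Nsdhl, mostly with a library left out. The cause was not tested.

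Leaving out each library in turn, members called higher ranged from 10 to 14 and lower from 3 to 6 in knockout cells under control siRNA, and from 14 to 17 and 5 to 6 under FEM1B siRNA, where the median was 0.11 to 0.23. With FEM1B siRNA in control cells they ranged from 15 to 20 and 1 to 2, with a median of 0.16 to 0.28, and in knockout cells from 15 to 21 and 1 to 2. Over all genes, those called higher ranged from 2820 to 3556 in knockout cells under control siRNA and from 3355 to 3763 under FEM1B siRNA. With FEM1B siRNA they ranged from 2460 to 3061 in control cells and from 2386 to 2984 in knockout cells. In the interaction, members called higher ranged from 0 to 5 and lower from 0 to 2, with a median of −0.026 to 0.13. Calls over all genes there ranged from 297 to 1859 against 807. Members called lower with the siRNA in knockout cells were 2 with no filter on low counts, 2 in the 6-library fit and 0 with chromosome medians removed. In control cells 1 was lower in the 6-library fit, and in the interaction 1 was lower with no filter, where 1393 of all genes were called. With chromosome medians removed, the knockout difference reversed for Npc1 (0.039) and Npc2 (0.12) under control siRNA and for Npc2 (0.16) under FEM1B siRNA. DESeq2 size factors changed the interaction calls over all genes from 462 higher and 345 lower to 369 and 441.

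Libraries with the same replicate number correlated at −0.115 to 0.0788, so the numbers were not taken as pairs. With the replicate block 4 members rather than 6 were lower in knockout cells under control siRNA (Npc1, adjusted p = 0.0562, and Npc2, 0.0676), no other member call changed, and 603 genes rather than 807 were called in the interaction. Counts were lowest for Idi1, at 128 to 254 a library, which limits its precision.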
